A study of Homo sapiens with 36 samples.

Results

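The potassium channel genes comprised every gene whose symbol was KCN followed by letters and a number and whose counts summed to at least 10 over all libraries. Of 93 such symbols in the count table, 76 met the limit, 17 fell below it and 3 of those 17 had no count at all. They were among 19689 genes tested and 28516 in the table. KCNB2 was just inside the limit with 12 counts in all, and KCNQ1 just outside with 9. The limit used the levels themselves, so it is no finding that the members were detected. KCNA1, KCNA7, KCNB2 and KCNC2 reached it only with the condition in which they were highest.

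Potassium channels let potassium leave or enter a cell and so set its resting voltage and end its action potentials. Voltage-gated pores (Kv1 to Kv4, Kv7 and the EAG, ERG and ELK families) open on depolarization, inward rectifiers and two-pore channels carry current near rest, and another set opens on intracellular calcium or sodium. Silent subunits form no pore alone but join other Kv subunits, and auxiliary subunits alter gating or trafficking. In neural progenitors these channels are known to take part in setting membrane voltage before cells become excitable.

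RNA-seq was performed on hNSC, a commercial human neural stem cell culture, 48 h after lentiviral transduction, to compare the roles of the homeodomain transcription factors MEIS1 and MEIS2. In the OE conditions, cells received dCas-VP64, MPHv2 and an sgRNA, a CRISPR-activation system that recruits transcriptional activators to a promoter. MEIS1-OE and MEIS2-OE targeted the named gene, and ctrl-OE carried non-targeting guides. In the KO conditions, cells received Cas9 with guides that cut the gene: MEIS1-KO and MEIS2-KO each had a pair of guides mixed 1:1, and ctrl-KO had non-targeting guides. The KO cultures are therefore mixtures of cells with different edits, and part of the targeted RNA remained. Each condition had 6 libraries, 36 in all. All came from 1 cell source, and the labels do not say whether the 6 were separate cultures, so p-values measure the spread between these libraries, which may be technical.

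Libraries held 15429985 to 22940493 counts in genes. Levels are given as CPM, counts scaled to library size with TMM factors. MEIS1 rose from 17.8 ± 1.1 CPM in ctrl-OE to 310.2 ± 14.3 in MEIS1-OE (SD, n = 6 each) and fell from 25.7 ± 1.66 in ctrl-KO to 8.96 ± 1.74 in MEIS1-KO. MEIS2 rose from 22.6 ± 1.23 to 823.8 ± 20.04 CPM in MEIS2-OE and fell from 25.8 ± 1.58 to 12.1 ± 0.936 in MEIS2-KO. All 8 neural stem cell markers were detected, among them SOX2, NES and VIM, and the pluripotency markers POU5F1 and NANOG summed to at most 0.372 CPM in any library. Markers of other cell types were present too. Over all libraries, 5 mesenchymal or pericyte markers summed to 285.4 to 519.1 CPM and 3 endothelial markers to 90.95 to 227.5 CPM. Of 10 neuron markers, RBFOX3, ELAVL4 and SLC17A6 had fewer than 10 counts in all. The others were detected, with ctrl-OE means from 0.0739 CPM for STMN2 to 168.2 for TUBB3 and 265.1 for MAP2. In such bulk samples, fewer cells of a type and less RNA per cell cannot be told apart.

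The channel genes were a small and mostly quiet set. They took 0.0215 to 0.0329% of a library's counts. Averaged over the 36 libraries, 33 members reached 1 CPM and 23 stayed under 0.1 CPM. Within ctrl-OE the median member had 0.554 CPM, beside 10.6 CPM for the median of all genes tested. The plot of levels by role shows that each role held members spread over the range.

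**Figure D1:**
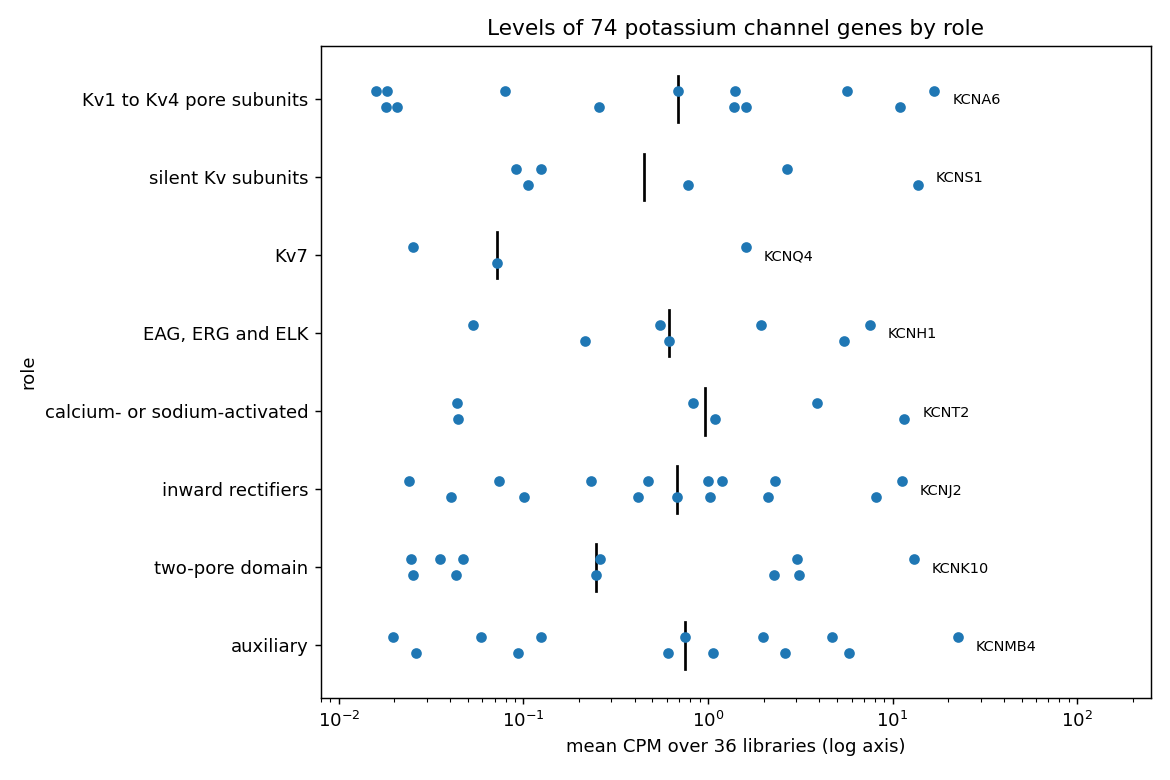
Mean level of 74 members over 36 libraries (CPM, log axis), grouped by role; each point is 1 gene and the black line is the median of the genes drawn in that role. The named gene is the highest drawn in its role, up to KCNMB4 at 22.5 CPM.

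Among the members with the highest levels per kilobase of exon, KCNMB4 had 4.64 CPM per kb over all libraries and KCNA6 had 4.22 CPM per kb. KCNMB4 encodes a beta subunit of the calcium-activated BK channel and KCNA6 a Kv1 pore subunit. KCNJ8, the pore of an ATP-sensitive channel, had 3.23 CPM per kb. BK channels themselves were scarcely represented: the pore gene KCNMA1 had 3 counts over the 6 libraries of MEIS1-KO and 8 over those of ctrl-KO.

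Differences were tested with edgeR's quasi-likelihood test in 1 fit of all 36 libraries, with Benjamini-Hochberg adjustment over all 19689 genes. A gene was called at an adjusted p below 0.05 with an absolute log2 fold change above 0.58. Every adjusted p below comes from this test, and those given for an alternative or a left-out replicate come from it refitted in that way, or from DESeq2 where that is named.

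MEIS2 activation was accompanied by a rise of KCNS1 that exceeded every other change among the members. KCNS1 encodes Kv9.1, a silent subunit that modifies Kv2 channels. Its level in ctrl-OE was 0.985 CPM at the lowest, 1.16 at the median and 1.45 at the highest. In MEIS2-OE it was 70.0 CPM at the lowest, 79.7 at the median and 90.5 at the highest, so the groups did not overlap. The means were 1.17 ± 0.178 and 79.9 ± 7.26 CPM (SD, n = 6 each). The log2 fold change was 6.07 ± 0.11 (SE, adjusted p = 7.56e-33). KCNS1 supplied a median of 26.5% of all member counts in MEIS2-OE and 0.542% in ctrl-OE. The study lists a single activation guide for MEIS2, and sites resembling the activation guides were not searched. Whether a guide acted directly at KCNS1 or at another member was not tested.

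The KCNS1 level in MEIS1-OE was 0.637 CPM at the lowest, 1.25 at the median and 1.41 at the highest, overlapping ctrl-OE. Compared directly, MEIS1-OE was lower than MEIS2-OE by a log2 fold change of -6.11 ± 0.12 (SE, adjusted p = 6.42e-33). In the KO conditions the gene was close to undetected, with 3 counts in all of ctrl-KO, 9 in MEIS1-KO and 6 in MEIS2-KO. The ratio of MEIS2-KO to ctrl-KO was 1.93 with a 95% counting interval of 0.411 to 11.9, which covers counting error only, so no change in either direction was detectable at this depth. The MEIS2 contrast, which sets the OE difference against the KO difference, gave KCNS1 a log2 value of 5.28 ± 1.23 (SE, adjusted p = 0.0124). It rests on those few KO counts, and it was lost without replicate 1, 3 or 6 (adjusted p up to 0.109).

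**Figure D2:**
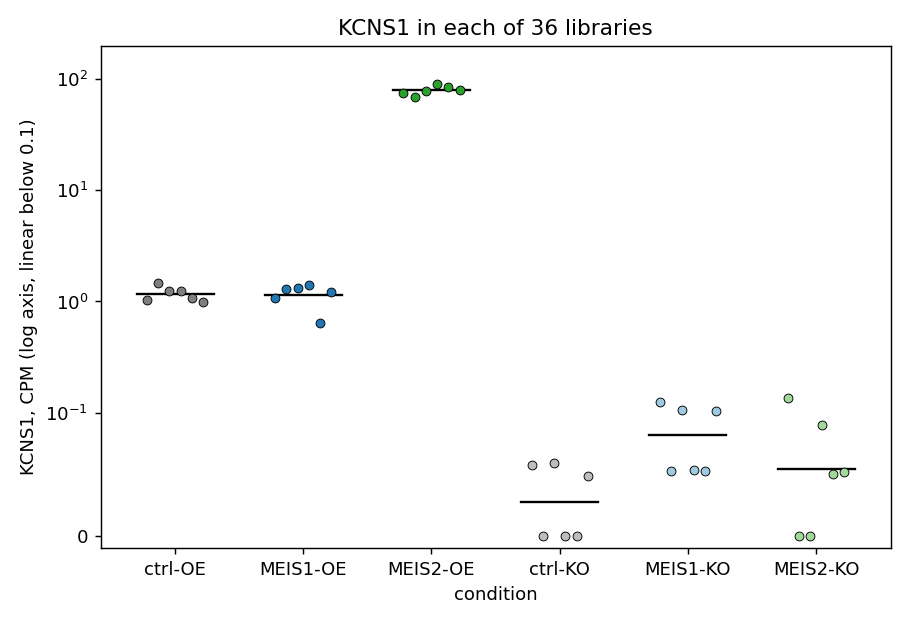
KCNS1 in each of 36 libraries by condition (CPM, log axis that is linear below 0.1); points are libraries and the line is the mean of 6. The 6 MEIS2-OE libraries sit between 70.0 and 90.5 CPM, above every other library.

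KCNS1 lies on the minus strand at chr20:43719855-43729768 (GRCh37), and its exons overlap no other annotated gene. The 4 tested genes that start within 200 kb of it did not pass in MEIS2-OE, with log2 fold changes from -0.51 to 0.09. This window was widened after a narrower one held no tested gene, and KCNS1 and KCNH3 were chosen for it after their values were seen. Of the 7 tested genes that start within 200 kb of KCNH3, PRPF40B, at a distance of 29.2 kb, passed higher in MEIS1-OE (0.20 ± 0.06 SE, adjusted p = 0.0251) and the other 6 did not pass.

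Apart from KCNS1, KCNJ1 was the only member called in MEIS2-OE, so that 2 of 76 were called, both higher, beside 0.498% of all genes tested and 0.422% called higher. KCNJ1 encodes the inward rectifier ROMK, best known from the kidney. It had 0.0894 CPM at the lowest, 0.14 at the median and 0.291 at the highest in ctrl-OE. In MEIS2-OE the corresponding values were 0.268, 0.377 and 0.633 CPM, so the groups overlapped. Its log2 fold change of 1.28 ± 0.30 (SE) had an adjusted p of 0.0207. The call was lost under 6 of 13 alternatives: DESeq2, only the groups compared, and without replicate 1, 2, 4 or 6 (adjusted p up to 0.274). At an adjusted p below 0.05 alone the same 2 members passed, beside 1.35% of all genes, and KCNS1 was the 1 member whose groups did not overlap, beside 1.33%. The median log2 fold change of all members was -0.02, beside -0.01 for all genes.

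More members were called in MEIS1 activation, none with a change as large as that of KCNS1. In MEIS1-OE 7 of 76 members were called, 4 higher and 3 lower, beside 2.84% of all genes tested, 2.24% higher and 0.599% lower. At an adjusted p below 0.05 alone there were 10, beside 9.1% of all genes, with 5 higher, beside 5.52%, and 5 lower, beside 3.58%. The 6 libraries of each condition did not overlap for 3 members, beside 4.38% of all genes. These counts include KCNA1, which entered the set through ctrl-OE alone and so had to differ, and nothing is read from them for the set as a whole. The median log2 fold change of the members was 0.09, beside -0.00 for all genes.

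The EAG, ERG and ELK family accounted for 3 of the 4 members called higher. KCNH3, which encodes an ELK channel of forebrain neurons, had 0.232 CPM at the lowest, 0.492 at the median and 0.581 at the highest in ctrl-OE. In MEIS1-OE it had 1.36, 2.07 and 2.68 CPM, and the groups did not overlap. The log2 fold change was 2.19 ± 0.27 (SE, adjusted p = 1.21e-07). KCNH3 shares 43 bases of exon with MCRS1 on the opposite strand, and MCRS1 did not pass, with a log2 fold change of 0.05 ± 0.09. Because the strand setting of the counting is not given in the sources used here, reads from that overlap cannot be assigned.

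KCNH2, the pore of the cardiac and neuronal ERG channel, had 3.24 CPM at the lowest, 4.55 at the median and 7.41 at the highest in ctrl-OE and 5.49, 8.71 and 9.44 CPM in MEIS1-OE. The ranges overlapped, and the log2 fold change was 0.75 ± 0.16 (SE, adjusted p = 0.000778). KCNH6, another ERG channel, moved from a mean of 0.281 ± 0.102 to 0.662 ± 0.243 CPM with overlapping ranges. Its log2 fold change was 1.22 ± 0.34 (SE, adjusted p = 0.0148), and the call was lost without replicate 4 (adjusted p = 0.0594). None of the 7 family members passed in the lower direction. KCNH1, an EAG channel, did not pass in this comparison (0.34 ± 0.12 SE, adjusted p = 0.0576).

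The fourth member called higher was KCNJ1, at 0.318 CPM at the lowest, 0.496 at the median and 0.546 at the highest in MEIS1-OE. These values did not overlap those of ctrl-OE, and the log2 fold change was 1.44 ± 0.29 (SE, adjusted p = 0.000539). KCNJ1 had 22 counts over the 6 ctrl-OE libraries. Its mean of 0.161 CPM there was the lowest of all conditions, beside 0.608 in ctrl-KO. Its calls in MEIS1-OE, MEIS2-OE and the MEIS1 contrast share these ctrl-OE libraries, so they are not independent. KCNJ2, the Kir2.1 inward rectifier that stabilizes the resting voltage, passed at 0.58 ± 0.15 (SE, adjusted p = 0.00682) but lay just under the fold limit. It had 5.77 CPM at the lowest, 7.59 at the median and 9.37 at the highest in ctrl-OE and 8.52, 10.4 and 17.1 CPM in MEIS1-OE. Its exons share 185 bases with KCNJ2-AS1 on the opposite strand, which did not pass (0.23 ± 0.14).

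**Figure D3:**
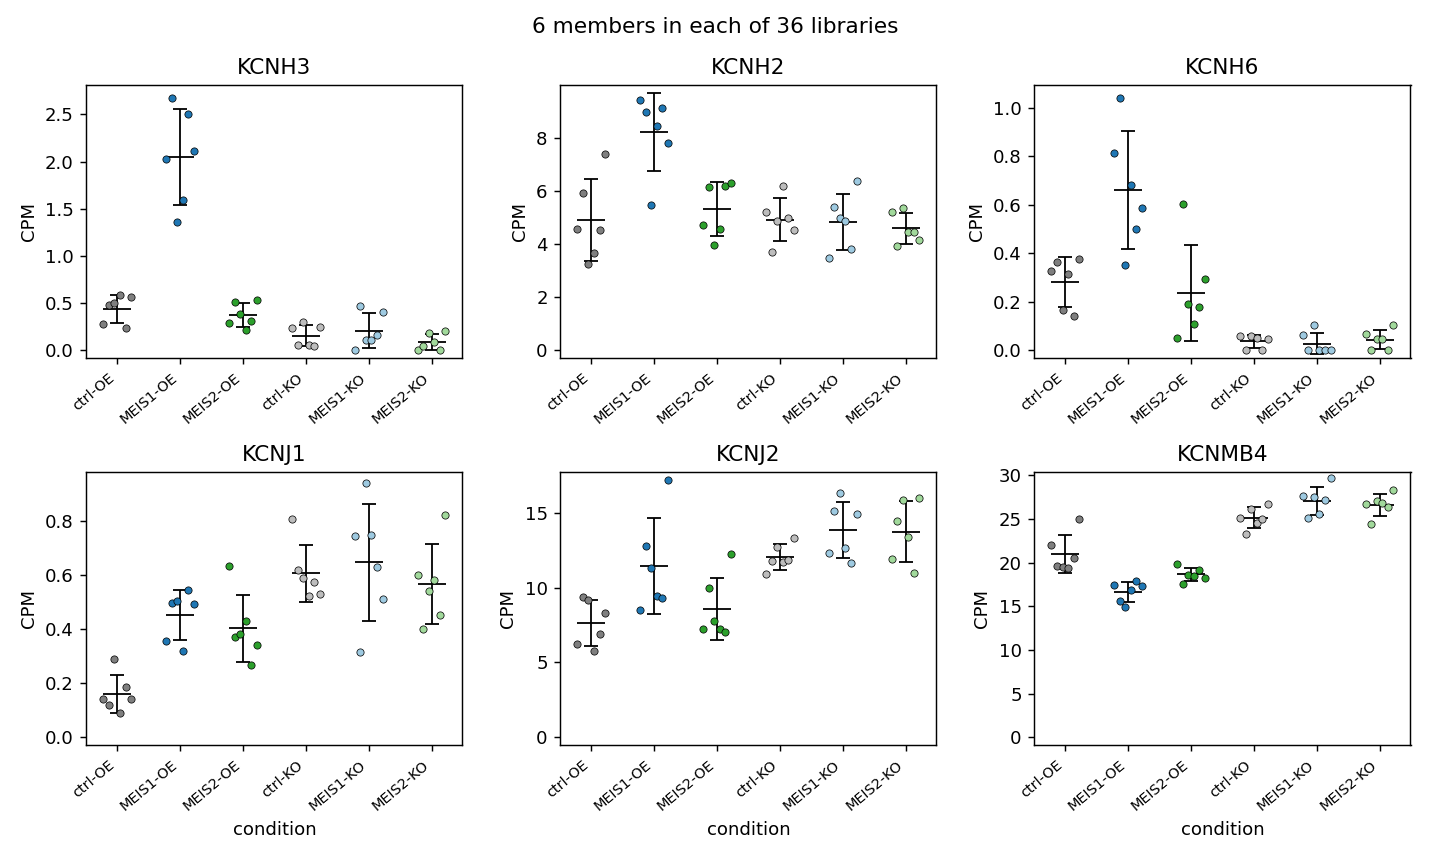
Level of 6 members in each of 36 libraries (CPM, linear axes), with the mean and SD of the 6 libraries of each condition. KCNH3 reaches 1.36 CPM only in MEIS1-OE libraries, and KCNMB4 is lower in every MEIS1-OE library than in any ctrl-OE library.

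Among the auxiliary subunits, KCNMB4 fell in MEIS1-OE. It had 19.4 CPM at the lowest, 20.1 at the median and 25.0 at the highest in ctrl-OE and 14.9, 17.1 and 17.9 CPM in MEIS1-OE, without overlap. The log2 fold change of -0.33 ± 0.06 (SE, adjusted p = 9.64e-05) was under the fold limit. KCNIP3, a calcium sensor that binds Kv4 channels, was called lower, from a mean of 0.79 ± 0.287 to 0.424 ± 0.124 CPM with overlapping ranges (log2 fold change -0.88 ± 0.27 SE, adjusted p = 0.0281). That call was lost under 4 of 13 alternatives, with only the groups compared and without replicate 2, 5 or 6 (adjusted p up to 0.205).

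KCNJ10, the Kir4.1 channel typical of astrocytes and oligodendrocytes, was called lower as well. It had a mean of 0.48 ± 0.202 CPM in ctrl-OE and 0.225 ± 0.0922 in MEIS1-OE (log2 fold change -1.10 ± 0.32 SE, adjusted p = 0.02). The call was lost with only the groups compared and without replicate 3 or 4 (adjusted p up to 0.0939). Of 5 astrocyte markers, 1 passed lower and 0 higher in this comparison, and their summed level ran from 8.46 to 14.7 CPM in ctrl-OE and from 7.36 to 10.6 in MEIS1-OE. None of the 5 was at 0 in either condition, and GFAP averaged 0.21 CPM in ctrl-OE. Of 7 neuron markers tested, 2 passed higher, with summed levels of 405.1 to 586.9 CPM in ctrl-OE and 471.4 to 531.1 in MEIS1-OE. The part of either set in the channel results was not tested.

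KCNA1, a Kv1 pore subunit, had 11 counts over the 6 ctrl-OE libraries and 0 over those of MEIS1-OE, called lower (adjusted p = 0.0148) and at least 3.48-fold lower against a floor of 3 counts over the group. Since it entered the set through ctrl-OE alone, this difference is no independent result. KCNA1 lost its call with only the groups compared and without replicate 1 or 5 (adjusted p up to 0.0601).

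Few members were called in the knockouts, where few of all genes were called too, so nothing is read from these counts for the set. In MEIS1-KO 0 of 76 were called, beside 0.29% of all genes tested, and 1 passed the adjusted p alone, beside 1.46%. Groups did not overlap for 2 members, beside 1.39%. By DESeq2 the count of calls was also 0, but 33 of the 76 members had no adjusted p there and could not be called. By edgeR's test 7 members had an unadjusted p below 0.05. The member that passed was KCNC1, a Kv3 pore subunit of fast-spiking neurons. It had 13.1 CPM at the lowest, 13.7 at the median and 14.5 at the highest in ctrl-KO and 9.39, 10.9 and 12.7 CPM in MEIS1-KO, without overlap. The log2 fold change was -0.35 ± 0.09 (SE, adjusted p = 0.0342), and it was lost under 6 of 13 alternatives, namely only the groups compared and without replicate 1, 3, 4, 5 or 6 (adjusted p up to 0.207).

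In MEIS2-KO 1 of 76 members was called, higher, beside 1.58% of all genes tested, 1.21% higher and 0.371% lower. At the adjusted p alone 4 passed, beside 10.0%, with 2 higher, beside 4.04%, and 2 lower, beside 5.98%. Groups did not overlap for 3 members, beside 6.44%. KCNC1 fell here too, to 10.2 CPM at the lowest, 10.8 at the median and 11.7 at the highest (log2 fold change -0.35 ± 0.09 SE, adjusted p = 0.0101). Without replicate 5 its adjusted p was 0.0536. Both comparisons use the same ctrl-KO libraries, so they are not independent. KCNE3, a single-pass subunit that alters Kv7 gating, was the member called. Its mean went from 0.398 ± 0.129 to 0.747 ± 0.152 CPM with overlapping ranges (log2 fold change 0.90 ± 0.26 SE, adjusted p = 0.0226), and the call was lost without replicate 2, 5 or 6 (adjusted p up to 0.0991).

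KCNA6 rose slightly in MEIS2-KO, where its lowest library had 11.1 CPM and its highest 13.3, beside 8.71 and 10.99 in ctrl-KO (0.23 ± 0.07 SE, adjusted p = 0.0241). This was lost under 4 of 13 alternatives, each without 1 replicate number (adjusted p up to 0.0866). KCNN3, the SK3 calcium-activated channel, moved by -0.38 ± 0.12 (SE, adjusted p = 0.0447), which was lost under 8 of 13 alternatives (adjusted p up to 0.212). Between MEIS1-KO and MEIS2-KO 0 members passed, beside 0.0152% of all genes at the adjusted p alone and 0.0102% called, and 1 had an unadjusted p below 0.05. DESeq2 called 0 members as well. Cell type markers differed in the knockouts too. In MEIS2-KO 3 of 5 mesenchymal or pericyte and 2 of 3 endothelial markers passed higher and 0 lower, beside 4.04% of all genes higher. Of 8 neural stem cell markers 1 passed higher and 3 lower, beside 5.98% lower. In MEIS1-KO 2 of 5 mesenchymal or pericyte markers passed higher, and 1 of 8 neural stem cell markers in each direction. The part of these markers in the channel results was not tested.

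**Figure D4:**
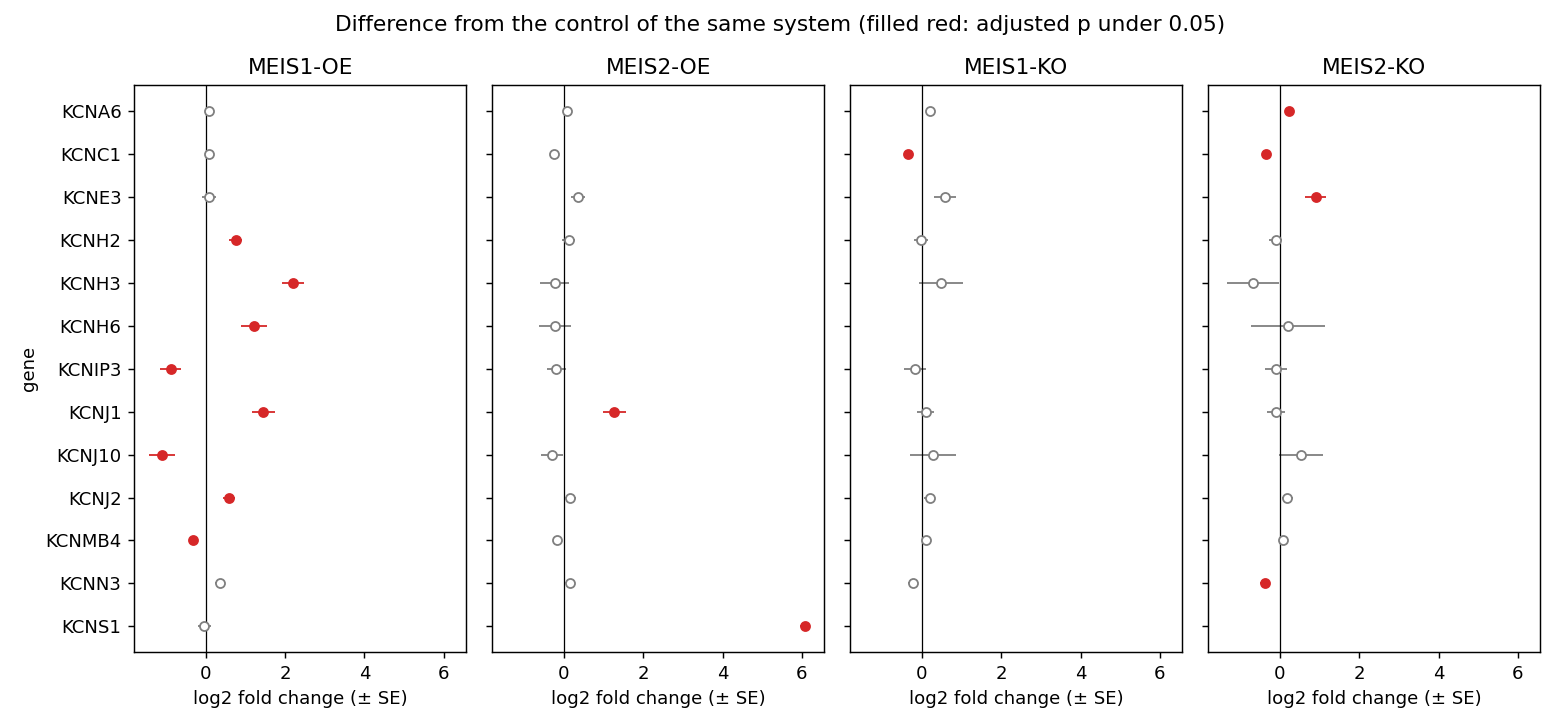
Log2 fold change with its SE for 13 members that passed an adjusted p of 0.05 in a comparison with a control, one panel for each comparison; filled red points passed, and values resting on 3 counts or fewer in a group are left out. KCNS1 in MEIS2-OE, at 6.07, lies beyond all other points.

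The knockout guides had predicted off-target sites, each with 4 mismatches, at or beside 6 members on the study's list of candidate sites. They are shown for KCNH7 and KCNH3 because these genes changed elsewhere in the data. The sequences read 5′ to 3′ in GRCh37, and capitals mark bases outside the PAM that differ from the guide.
guide MEIS1-g2 with its PAM: ggtggccacacgtcacacagtgg
site at KCNH7, chr2:163276295-163276317, minus strand: AgtggccTcacAtcacacaCagg
guide MEIS1-g3 with its PAM: aaaaagcgtcacaaaaagcgtgg
site at KCNH3, chr12:49924458-49924480, minus strand: aaaaTgAgtTacaaaaagTgagg
The first lies in an intron of KCNH7 and the second 8.36 kb from the start of KCNH3, outside the gene. KCNH7, an ERG channel, had a mean of 3.49 ± 0.472 CPM in ctrl-KO, 2.81 ± 0.775 in MEIS1-KO and 2.63 ± 0.194 in MEIS2-KO. It did not pass in MEIS1-KO (-0.32 ± 0.15 SE, adjusted p = 0.411). KCNH3 had 17 counts over ctrl-KO and 24 over MEIS1-KO (0.49 ± 0.56 SE, adjusted p = 0.819). The others were KCNE3, KCNQ5, KCNJ4 and KCNQ3. KCNE3 lies near a site of a MEIS1 guide and did not pass in MEIS1-KO (adjusted p = 0.395). KCNQ5, KCNJ4 and KCNQ3 are listed for MEIS2 guides and did not pass in MEIS2-KO, with adjusted p of 0.51, 0.661 and 0.656.

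Set against each other, the activations differed in 7 members at an adjusted p below 0.05, beside 7.75% of all genes, and in 4 with the fold limit, 3 higher in MEIS1-OE and 1 lower, beside 2.7% of all genes called, 2.03% higher and 0.676% lower. Groups did not overlap for 2 members, KCNS1 and KCNH3, beside 4.09%. Of the 7 KCNH members 4 passed, all higher in MEIS1-OE. KCNH3 was 2.42 ± 0.29 (SE, log2) higher in MEIS1-OE than in MEIS2-OE (adjusted p = 4.11e-08), where its 6 libraries ran from 0.215 to 0.538 CPM. KCNH6 differed by 1.43 ± 0.35 (adjusted p = 0.00582), KCNH2 by 0.63 ± 0.16 (adjusted p = 0.00608) and KCNH1 by 0.48 ± 0.12 (adjusted p = 0.00524). KCNC1 differed by 0.34 ± 0.09 (adjusted p = 0.0131). KCNK5, a two-pore channel named after its values were seen, differed by 0.47 ± 0.14 (adjusted p = 0.0272). Without replicate 1 or 4 the differences of KCNH2 and KCNH6 no longer passed, nor did that of KCNK5 without replicate 1, 4 or 6. The difference of KCNC1 was lost with only the groups compared and without replicate 4 or 5 (adjusted p up to 0.0878).

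The MEIS1 contrast, the OE difference less the KO difference, called 2 of 76 members, beside 1.41% of all genes, and 4 passed the adjusted p alone, beside 3.48%. These were KCNJ1 at 1.35 ± 0.37 (SE, adjusted p = 0.0388) and KCNH2 at 0.77 ± 0.23 (adjusted p = 0.0493). KCNMB4 at -0.44 ± 0.08 (adjusted p = 0.0006) and KCNC1 at 0.44 ± 0.13 (adjusted p = 0.0403) passed under the fold limit. KCNH3 at 1.70 ± 0.67 (adjusted p = 0.206) and KCNH6 at 1.55 ± 1.21 (adjusted p = 0.685) did not pass, and both had few KO counts. The values of KCNJ1 and KCNH2 were lost under 6 of 13 alternatives each and that of KCNC1 under 7, with an adjusted p of up to 0.235, 0.31 and 0.383. In MEIS1-KO alone KCNJ1 moved by 0.10 ± 0.22 (SE, adjusted p = 0.946) and KCNH2 by -0.02 ± 0.17 (adjusted p = 0.997). Neither passed there. The MEIS2 contrast called KCNS1 alone, 1 of 76 beside 0.985% of all genes, and at the adjusted p alone beside 2.57%.

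The regions upstream of start sites were read for 3 letter strings, since MEIS proteins are known to bind TGACAG and, with partners, longer sites. The RefSeq promoter table (GRCh38.p14) covered 56 of the 76 members. On either strand and in 300 bases around the start, TGACAG occurred in at least 1 promoter of 9 of the 56, or 16.1%, and in 15.8% of 35116 promoters of all genes. TGATTGAC, whose last 4 letters can be the start of a TGACAG, and TGATTTAT were in 0 of the 56 and in 0.575% and 0.846% of all promoters. A member with several start sites had several chances, so the members' share is not strictly comparable. The upstream 250 bases are shown for the members that passed higher in MEIS1-OE and have an entry, 1 start site each. Capitals mark TGACAG.
KCNH2, chr7:150955805-150956054, minus strand: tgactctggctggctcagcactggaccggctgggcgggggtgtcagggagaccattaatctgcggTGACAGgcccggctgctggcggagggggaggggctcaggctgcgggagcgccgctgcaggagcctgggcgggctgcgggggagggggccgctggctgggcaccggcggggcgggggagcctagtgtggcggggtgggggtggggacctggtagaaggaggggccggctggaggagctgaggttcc
KCNH6, chr17:63523108-63523357, plus strand: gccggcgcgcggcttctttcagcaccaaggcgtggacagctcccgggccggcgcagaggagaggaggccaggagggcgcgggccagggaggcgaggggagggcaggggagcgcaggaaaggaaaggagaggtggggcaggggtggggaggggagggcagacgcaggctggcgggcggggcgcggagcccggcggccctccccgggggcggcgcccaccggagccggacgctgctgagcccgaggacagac
KCNJ1, chr11:128867297-128867546, minus strand: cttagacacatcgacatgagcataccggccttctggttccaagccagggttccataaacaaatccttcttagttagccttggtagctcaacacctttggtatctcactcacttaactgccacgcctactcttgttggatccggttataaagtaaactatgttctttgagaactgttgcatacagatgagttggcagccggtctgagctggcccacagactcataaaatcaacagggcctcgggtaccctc
KCNJ2, chr17:70169282-70169531, plus strand: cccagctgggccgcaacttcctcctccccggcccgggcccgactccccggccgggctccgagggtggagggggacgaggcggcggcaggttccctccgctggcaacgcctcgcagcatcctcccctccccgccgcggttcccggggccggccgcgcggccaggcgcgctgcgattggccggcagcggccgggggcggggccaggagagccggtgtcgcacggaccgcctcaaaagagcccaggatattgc
KCNH2 held the string at 1 of its 5 listed start sites, the one shown. KCNJ1 has 2 listed start sites and neither held it. Of the windows shown, that of KCNJ1 had 47.6% G and C and the other 3 had 74.4 to 77.6%, while the 5 windows of KCNH2 ran from 38.4 to 77.2%. A match describes letters only.

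The largest number of differences lay between the control conditions, which shared neither vectors nor system. Of 76 members, 33 were called in ctrl-OE against ctrl-KO, 18 higher and 15 lower, beside 22.1% of all genes, 13.0% higher and 9.15% lower. At an adjusted p below 0.05 alone, 40 passed, or 52.6% of members, beside 51.4% of all genes, with 19 higher, beside 27.5%, and 21 lower, beside 23.9%. Groups did not overlap for 22 members, beside 31.8%. The set includes KCNA1 and KCNB2, which reached the count limit only with ctrl-OE, so the limit itself favoured higher values there. Nothing is read from these counts for the set as a whole. System, vectors and any batch that separates them cannot be told apart.

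KCNA6 was higher in ctrl-OE, at 20.4 CPM at the lowest, 21.3 at the median and 23.2 at the highest, against 8.71, 10.4 and 10.99 CPM in ctrl-KO. The log2 fold change was 1.07 ± 0.07 (SE, adjusted p = 1.06e-16), and all 18 OE libraries were above every KO library. KCNS1 had 160 counts over ctrl-OE and 3 over ctrl-KO, a ratio of 49.2 with a 95% counting interval of 16.5 to 241.2. KCNV1, another silent subunit, had 31 counts over ctrl-OE and 0 over ctrl-KO, at least 9.53-fold higher. KCNE3 (1.81 ± 0.23) and KCNJ10 (2.51 ± 0.41) were higher too. Beside the rise of KCNJ10, 3 of 5 astrocyte markers were lower in ctrl-OE and 1 was higher, with summed levels of 8.46 to 14.7 CPM against 28.1 to 32.6 in ctrl-KO.

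KCNK10, a two-pore channel of the TREK group, was lower in ctrl-OE, with 6.77 CPM at the lowest, 8.46 at the median and 9.85 at the highest, against 16.1, 17.6 and 19.8 CPM in ctrl-KO. The log2 fold change was -1.11 ± 0.08 (SE, adjusted p = 1.88e-15). KCNK2, of the same group, gave -0.92 ± 0.12 (adjusted p = 2.91e-08), and KCNK12 gave -2.30 ± 0.26 (adjusted p = 1.54e-09). KCNK12 shares exon bases with a gene on the opposite strand, so its counts are uncertain. KCNH7 (-1.96 ± 0.18) and KCNJ6, a G protein-gated inward rectifier (-1.35 ± 0.15), were lower as well.

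By role, beside 27.5% of all genes that passed higher and 23.9% lower, 5 of 14 Kv1 to Kv4 pore subunits passed higher and 3 lower. Those 14 include KCNA1 and KCNB2, which reached the count limit only with ctrl-OE. Of 6 calcium- or sodium-activated members 0 passed higher and 3 lower. Differences between roles were not tested. Inward rectifiers and two-pore channels each had 4 in either direction, out of 15 and 11. Beside these differences, 7 of 8 neural stem cell markers were lower in ctrl-OE, with summed levels of 2987 to 3851 CPM against 4398 to 4893 in ctrl-KO. Of 7 neuron markers tested, 1 was higher and 4 were lower, with sums of 405.1 to 586.9 CPM against 968.9 to 1013. Their part in the channel results was not tested.

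**Figure D5:**
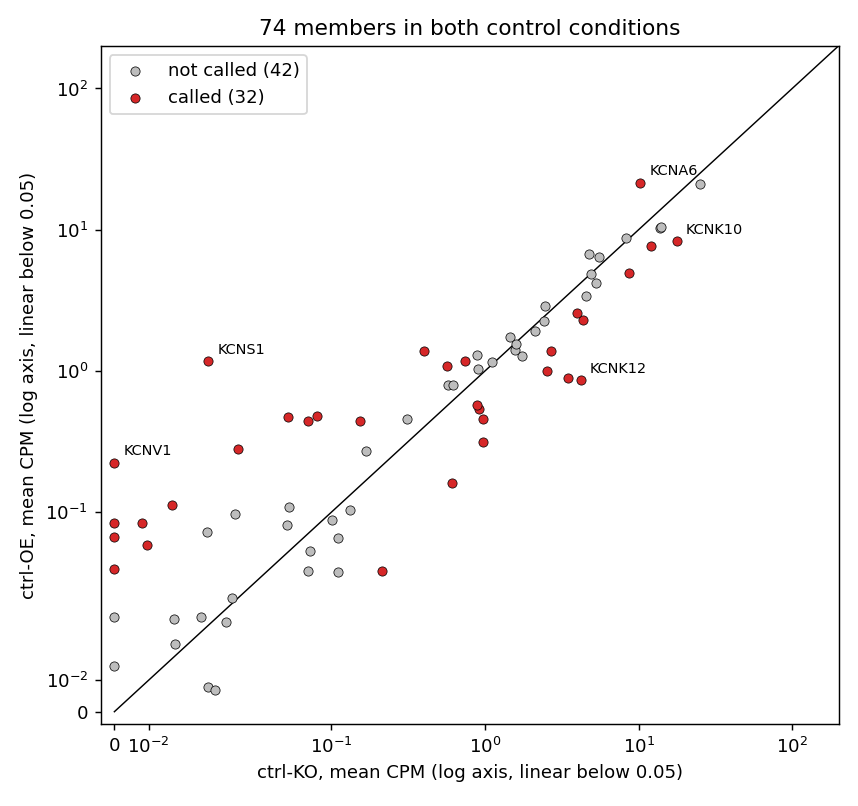
Mean level of 74 members in ctrl-OE against ctrl-KO (CPM, both axes logarithmic and linear below 0.05, 6 libraries each); the line marks equal levels and red points were called. Of the 32 called members drawn, 17 lie above the line and 15 below, and KCNS1 and KCNV1 lie far above it.

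Other genes of potassium transport were read from a list of 31 partners, HCN channels, pumps and cotransporters, of which 27 were tested. In MEIS1-OE 1 passed higher, beside 5.52% of all genes, and 4 lower, beside 3.58%. In MEIS2-OE 1 passed in each direction, beside 1.35% of all genes in both together. In MEIS1-KO 0 of the 27 passed, beside 1.46% of all genes, and in MEIS2-KO 3 passed, all lower, beside 10.0% of all genes and 5.98% lower. The latter were LRRC55, an auxiliary protein of BK channels, AMIGO1, a Kv2 partner, and ABCC9, a subunit of ATP-sensitive channels, with log2 fold changes from -0.28 to -0.25.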

How the data were processed

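RNA-seq counts were deposited by the authors as 1 table of raw counts per gene symbol for 36 libraries. They made it from stranded poly-A libraries sequenced as paired reads of 100 bases, aligned to hg19 with STAR and counted with HTSeq. The study's methods and the submitters' processing notes give different STAR releases, and the notes list Trimmomatic 0.39 and STAR 2.7.0a. The annotation and strand setting are not given in the sources used here, so antisense and overlapping genes may share counts. KCNJ12 has near-identical copies and is uncertain.

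From these counts, genes with at least 10 counts in all were TMM-scaled and tested with edgeR 4.0.16 (two-sided quasi-likelihood test, 6 groups, no covariates, prior count 0.125) at the thresholds of the study. DESeq2 1.42.0 was an alternative. Scripts were tested on simulated data. Intervals on ratios of counts are exact binomial at 95%, and the floor for a group at 0 is 3 counts. All 76 members had a position in GENCODE's lifted annotation on GRCh37. Off-target sequences came from the study's supplementary list and were read against GRCh37, without its scores.

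Groups came from the sample labels. The members and lists were chosen with earlier results of these data known. Named members were those with an adjusted p below 0.05 in a comparison with a control or in a contrast, the highest of each role, the 5 most significant higher and 5 most significant lower ones between controls, those beside off-target sites, and the symbols at the threshold. Alternatives were other scaling, filters, prior count, a replicate block, only the groups compared, DESeq2, the adjusted p alone, and each replicate number left out. Some genes are not reported here by name; counts of genes include them, and plots leave them out.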

Additional observations from a re-analysis of the deposited data

Results flagged for a closer look

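Single libraries stood apart from the other 5 of their condition by Dixon's test in 9 of 144 groups tested, over 24 named members, and chance alone gives about 1 in 20 groups. These were KCNJ4 at 1.92 CPM in ctrl-OE replicate 6. Others were KCNA6 at 8.71 CPM in ctrl-KO replicate 3, KCNJ1 at 0.81 CPM in ctrl-KO replicate 1 and KCNK12 at 2.76 CPM in ctrl-KO replicate 2. KCNJ6 stood out at 4.77 CPM in MEIS1-KO replicate 4. The remaining 4 rest on 1 or 2 counts, namely KCNA1 at 0.0483 CPM in ctrl-KO replicate 6, KCNQ3 at 0.0513 CPM in MEIS1-KO replicate 6 and at 0.103 CPM in MEIS2-KO replicate 6, and KCNQ5 at 0.0447 CPM in MEIS2-OE replicate 5.

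The difference between both activations passed an adjusted p of 0.05 by edgeR's quasi-likelihood test in 7 members. On the log2 scale, MEIS1-OE less MEIS2-OE was -6.11 for KCNS1, 2.42 for KCNH3, 1.43 for KCNH6, 0.63 for KCNH2, 0.48 for KCNH1, 0.47 for KCNK5 and 0.34 for KCNC1.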

How the results depend on the processing

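Of 41 results for single members, each recomputed under up to 13 alternatives, 21 kept their side of the threshold under all, 19 lost it under at least 1, 1 gained it and 0 reversed. KCNS1 in MEIS2-OE and KCNH3, KCNH2, KCNJ1, KCNJ2 and KCNMB4 in MEIS1-OE passed under all alternatives.

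Counts of members called moved as follows. With only the groups compared in the fit, the count was 4 in MEIS1-OE, 1 in MEIS2-OE, 1 in the MEIS1 contrast and 2 in the MEIS2 contrast. DESeq2 gave 1 in MEIS2-OE and 1 in the MEIS1 contrast, where members without an adjusted p were not counted. The adjusted p alone gave 1 in MEIS1-KO, 4 in MEIS2-KO, 4 in the MEIS1 contrast and 7 in MEIS1-OE against MEIS2-OE. RLE size factors and no filter beyond 1 count each gave 1 in the MEIS1 contrast. filterByExpr gave 2 in the MEIS2 contrast.

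Leaving out each replicate number in turn gave 1 to 2 members in MEIS2-OE, 0 to 2 in MEIS2-KO, 0 to 2 in the MEIS1 contrast, 0 to 2 in the MEIS2 contrast, 2 to 6 in MEIS1-OE against MEIS2-OE, 5 to 7 in MEIS1-OE and 28 to 31 in ctrl-OE against ctrl-KO. The MEIS2 contrast of KCNS1 was lost without replicate 1, 3 or 6.

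Replicate numbers were not treated as pairs in the main fit, and the labels do not say whether they mark a batch. The correlations given here cannot exclude a weak pairing. Deviations of same-numbered libraries correlated at a mean of 0.0361, with 16 of 90 pairs above 0.1, and those of other libraries at -0.00732. With the replicate block the MEIS2 contrast called 2 members. Beyond the alternatives' own construction, the cause of these shifts was not tested. Members under 0.1 CPM rest on few counts, and differences among them were mostly not detectable at this depth.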
